A study of Mus musculus with 8 samples.

Results

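The BPI-fold genes named Bpif encode secreted and secretory-pathway proteins that share the lipid-binding fold of the bactericidal/permeability-increasing protein. The 9 members described here were the rows of the deposited polysome table carrying the symbols Bpifa1, Bpifb1, Bpifb2, Bpifb3, Bpifb4, Bpifb5, Bpifb6, Bpifb9a and Bpifb9b, out of 21765 genes. They were chosen by symbol and not by a threshold on their values. The RNA came from the main olfactory epithelium of mice, was bound to polysomes, and was divided on a sucrose gradient into early polysomes (fractions 27 to 34, lighter, with fewer ribosomes per transcript) and late polysomes (fractions 35 to 42, heavier). Mice labelled WT carried Mex3a flox/flox or Mex3a flox/+ without Cre, and mice labelled cKO carried Mex3a flox/flox with a Cre whose line is not reported here. Both genotypes therefore carried floxed Mex3a, which encodes an RNA-binding protein, and all tissue was exposed to 100 µg/mL cycloheximide, which arrests ribosomes on transcripts. Early and late polysomes of each genotype make up 4 groups of 2 libraries. Within a genotype, the early and late library of a number came from 1 lysate by their library names, so each genotype had 2 lysates. The labels used here give no age or sex and do not say how many animals a lysate holds, and p-values measure only the spread between these libraries.

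Proteins of this family are secreted onto airway and oral surfaces. In the nose they come from Bowman's glands beneath the olfactory epithelium, from the larger nasal glands and from surface secretory cells, and they enter the mucus that odorants and microbes meet first. Short members such as Bpifa1 hold 1 BPI domain, and the long members named Bpifb hold a pair of them. Bpifa1 (SPLUNC1) binds bacterial lipopolysaccharide and lowers surface tension. Bpifb1 (LPLUNC1) is a mucus protein of goblet and gland cells, and Bpifb9a and Bpifb9b encode proteins of the vomeromodulin type, a glycoprotein known from nasal and vomeronasal glands. Human counterparts of Bpifb3 and Bpifb6 have been studied as proteins of the endoplasmic reticulum and the secretory route.

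Whole reads inferred from the steps of the values summed to between 7776792 and 12771079 per library, the lowest in cKO late replicate 2. Mex3a stood at 93.2 to 115.6 TPM (transcripts per 1000000, a unit scaled to transcript length) in the 4 WT libraries and at 11.1 to 19.8 TPM in the 4 cKO libraries. Replicate 2 of WT early is titled WT but tagged with the cKO genotype, and its Mex3a level of 115.6 TPM lay with WT. It was kept as WT, and the counts of members without it are given with the comparisons that use it.

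All 9 members lie in 1 cluster on mouse chromosome 2 (GRCm38, 153875045 to 154320646, 446 kb), where GENCODE places 13 Bpif genes, each on the plus strand. In chromosome order they are Bpifb2, Bpifb6, Bpifb3, Bpifb4, Bpifa6, Bpifa2, Bpifa3, Bpifa1, Bpifa5, Bpifb1, Bpifb5, Bpifb9a and Bpifb9b. Bpifa1, at 154142880 to 154149219, is the shortest member with a coding length of 834 nucleotides over 9 exons. Bpifb4, at 153938212 to 153964101, is the longest at 1851 nucleotides over 17 exons. Bpifb9a (154257854 to 154271245) and Bpifb9b (154307227 to 154320646) are near copies: the transcripts with the longest coding sequence were 99.3% identical over 2065 aligned bases, with 14 substitutions, and shared an unbroken identical run of 465 bases. How the authors counted reads that fit both genes is not given in the sources used here, so the split between Bpifb9a and Bpifb9b is uncertain, and their sum is given as well.

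The 3 members with the highest levels (below) were also the 3 of 9 whose promoter window held the TATA-box motif TATAAA on the strand of the gene. Windows of 300 bases (250 before and 50 after the RefSeq start, GRCm38.p6) were matched for 9 of 9 members. The motif was chosen after the windows had been read, and 8.32% of the 32851 windows in the table hold it on the gene's strand (13.6% on either strand). A match is a description of letters, not of a working site. Below are the 100 bases that precede the GENCODE start of these 3 genes and of Bpifa5, a neighbour of Bpifa1 with the same motif, all from the plus strand, with the motif in capitals. They are shown because the near copies Bpifb9a and Bpifb9b can be compared there, and because Bpifa1 and Bpifa5 carry like stretches at very unlike levels.
Bpifb9a, chr2:154257754-154257853: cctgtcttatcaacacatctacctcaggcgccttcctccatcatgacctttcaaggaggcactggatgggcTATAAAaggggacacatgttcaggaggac
Bpifb9b, chr2:154307127-154307226: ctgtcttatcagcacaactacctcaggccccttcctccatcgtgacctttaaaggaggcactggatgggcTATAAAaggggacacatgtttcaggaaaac
Bpifa1, chr2:154142780-154142879: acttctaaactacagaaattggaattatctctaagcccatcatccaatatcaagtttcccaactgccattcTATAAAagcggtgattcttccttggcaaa
Bpifa5, chr2:154162507-154162606: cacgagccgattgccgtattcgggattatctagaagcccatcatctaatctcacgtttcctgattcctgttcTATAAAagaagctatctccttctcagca
The motif began 29 bases before the GENCODE start in Bpifb9a and Bpifa1, 30 before it in Bpifb9b and 28 before it in Bpifa5. The Bpifb9a and Bpifb9b stretches differed by 7 substitutions and 1 gap position over 100 aligned columns. The Bpifa1 and Bpifa5 stretches were 66.7% identical, and their transcripts 73.1%. Bpifa5 nevertheless stood at a mean of 0.101 TPM, against 5552 TPM for Bpifa1, so stretches with this motif and this likeness stood before genes of very unlike levels.

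**Figure D1:**
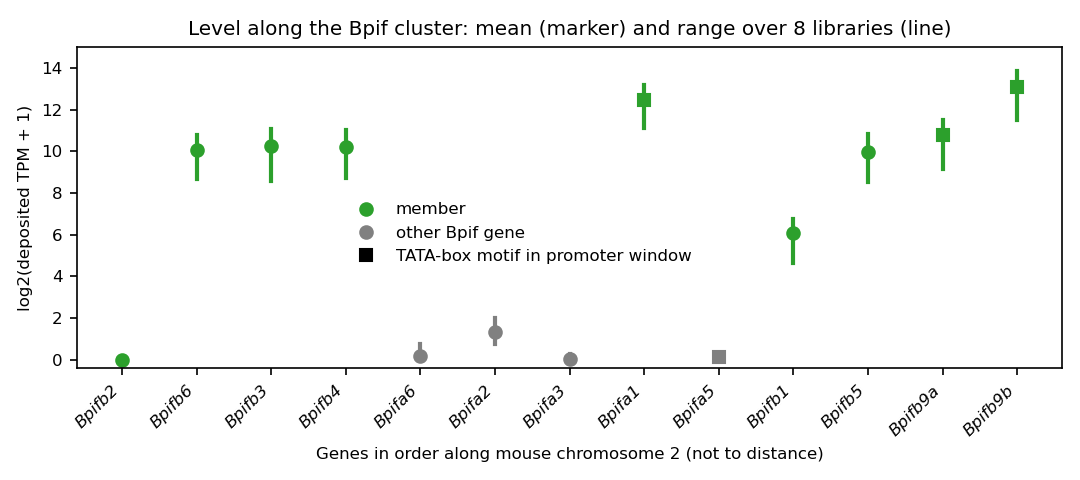
Level of the 13 Bpif genes in their order along chromosome 2 (x axis, not to distance), as log2(deposited TPM + 1) on the y axis; markers are means and vertical lines the range over 8 libraries, green for the 9 members, grey for other Bpif genes and squares for genes with the motif. Members at 67.4 to 8572 TPM stand beside genes at 0.0257 to 1.50 TPM, and Bpifb2 is listed at 0.

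Levels within the cluster ran from 0 to among the highest in the table. TPM is per transcript length, so levels can be compared between genes. Bpifb9b averaged 8572 TPM over the 8 libraries, rank 3 of all genes, and Bpifa1 5552 TPM, rank 5. Within single libraries the rank ran from 1 to 22 for Bpifb9b and from 4 to 34 for Bpifa1, and both genes ranked higher in the late library of each lysate than in its early library. Bpifb9b was above Bpifa1 in 7 of 8 libraries. Bpifb9a followed at 1736 TPM, below Bpifa1 in 8 of 8 libraries.

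A middle group of 4 genes lay close together: Bpifb3 at 1237, Bpifb4 at 1198, Bpifb6 at 1080 and Bpifb5 at 986.1 TPM. Their order was not fixed across libraries. Bpifb3 exceeded Bpifb4 in only 3 of 8 libraries, Bpifb4 exceeded Bpifb6 in 7 of 8 and Bpifb6 exceeded Bpifb5 in 5 of 8. Bpifb1 was far lower, at 67.4 TPM (rank 3270), on 177 to 739 reads per library. Bpifb2, at the left end of the cluster, was listed at 0 in 8 of 8 libraries and entered no test.

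The 9 members together took 1.46% and 0.832% of all TPM in early WT libraries (replicates 1 and 2) and 2.82% and 2.36% in late WT libraries. In cKO they took 1.41% and 0.962% of the early and 3.37% and 3.12% of the late libraries. Their share was thus higher in every late library than in every early library. In such bulk tissue, fewer cells of a type and less RNA per cell cannot be told apart. Other BPI-fold genes of the cluster were near 0: Bpifa2, a salivary protein gene, averaged 1.50 TPM, Bpifa6 0.142 TPM and Bpifa3 0.0257 TPM.

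All 8 tested members were higher in late than in early polysomes. Averaged over the genotypes, the log2 change of log2(scaled TPM + 1), where scaled TPM is TPM divided by a median-ratio factor per library, ran from 0.92 in Bpifb5 to 1.50 in Bpifb3. The median was 1.31 over the members, against -0.01 over all 16097 genes tested. Each of the 8 passed an adjusted p of 0.05 by limma (Benjamini-Hochberg adjustment over all genes tested), and each was higher in the late library of 4 of 4 lysates. Of all genes tested, 34.3% were called higher in late polysomes, and 32.5% of the 6753 tested genes with a coding length within the members' range of 834 to 1851 nucleotides.

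Of the short members, Bpifa1 stood at 3733 and 2996 scaled TPM in early WT libraries and at 5982 and 7294 in late WT libraries. In cKO it stood at 3594 and 2362 in early and at 8416 and 8870 in late libraries. No early value reached a late value, and the highest late values were those of cKO. The log2 change on average was 1.27 (SE 0.18, adjusted p = 0.000345 by limma), which is 2.42-fold.

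Among the long members, the pair Bpifb9b and Bpifb9a gave the highest levels. Bpifb9b was at 6342 and 2912 scaled TPM in early WT and at 12306 and 7835 in late WT libraries. In cKO it was at 6677 and 4936 in early and at 14641 and 11384 in late libraries. Replicate 1 was above replicate 2 in all 4 groups, and all late values were above all early ones. The log2 change was 1.18 (SE 0.29, adjusted p = 0.00614 by limma).

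Bpifb9a had 1320 and 585.6 scaled TPM in early WT and 2727 and 1724 in late WT libraries. In cKO it had 1098 and 974.6 in early and 2755 and 2356 in late libraries. Again the early and late values did not overlap. The log2 change was 1.30 (SE 0.25, adjusted p = 0.00188 by limma). Bpifb9a made up 14.1% to 18.1% of the TPM of the pair in every library. With the pair summed and tested as 1 gene, the change was 1.20 (SE 0.29, adjusted p = 0.00598 by limma), and was called there too.

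Bpifb3, Bpifb6 and Bpifb4 are neighbours at the left of the cluster. Bpifb3 was at 859.5 and 584.4 scaled TPM in early WT and at 1632 and 1608 in late WT libraries, and at 728.5 and 404.1 in early cKO and 1772 and 2020 in late cKO libraries. Its late replicates lay much closer together than its early ones, and no values overlapped between the fractions. The change of 1.50 (SE 0.20, adjusted p = 0.000206 by limma), 2.82-fold, was the highest of the members.

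Bpifb6 was at 776.3 and 490.5 scaled TPM in early WT and at 1282 and 1339 in late WT libraries, and at 699.3 and 425.8 in early cKO and 1726 and 1672 in late cKO libraries. Its change was 1.36 (SE 0.19, adjusted p = 0.00026 by limma). Bpifb4 was at 900.1 and 492.4 scaled TPM in early WT and at 1796 and 1355 in late WT libraries, and at 886.2 and 453.4 in early cKO and 2018 and 1440 in late cKO libraries. Bpifb4 differed from its neighbours in that replicate 2 was the lower library in both fractions and both genotypes. Its change was 1.33 (SE 0.26, adjusted p = 0.00203 by limma).

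Bpifb1, the mucus protein gene, was at 41.1 and 32.5 scaled TPM in early WT and at 86.2 and 92.3 in late WT libraries. In cKO it was at 46.0 and 25.1 in early and at 98.7 and 102.5 in late libraries. Although far lower than the others, it was shifted as much: the change was 1.40 (SE 0.17, adjusted p = 0.000137 by limma). Bpifb5 was at 659.3 and 380.6 scaled TPM in early WT, 856.2 and 811.5 in late WT, 963.1 and 655.6 in early cKO and 1721 and 1694 in late cKO libraries. Bpifb5 was the one member in which an early value of one genotype, 963.1 in cKO, lay above late values of the other, both WT values. Its change on average was the lowest of the members, 0.92 (SE 0.18, adjusted p = 0.0022 by limma).

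**Figure D2:**
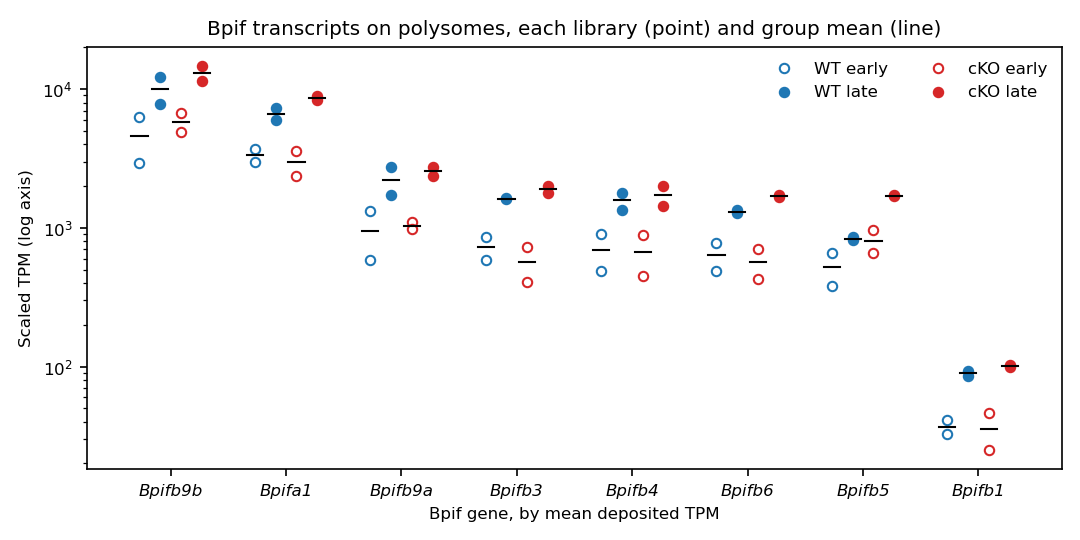
Scaled TPM (y axis, log scale) of the 8 Bpif members above 0 in each library (points; open for early, filled for late, blue for WT, red for cKO) with group means as black lines. Late points lie above early points of the same genotype in every gene, and late cKO Bpifb5, at 1721 and 1694, lies apart from late WT at 856.2 and 811.5.

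Within genotypes the shift was called for 8 of 8 members in WT (0.73 in Bpifb5 to 1.30 in Bpifb9a, with 27.1% of all genes tested called higher) and for 8 of 8 in cKO (1.10 in Bpifb5 to 1.80 in Bpifb3, with 28.9% called higher). The number of calls within a genotype changed with single libraries. Without WT early replicate 2, the library with the conflicting tag, 1 of 8 was called in WT, while without WT late replicate 1 it was 4 and without WT late replicate 2 it was 5. Over all genes, calls in either direction in WT numbered 8826 with every library, 5874 without WT early replicate 2, 6999 without WT late replicate 1 and 6175 without WT late replicate 2. The log2 change in WT fell most without WT early replicate 2, to 0.34 in Bpifb5, 0.63 in Bpifb9b, 0.72 in Bpifb9a and 0.79 in Bpifb4, and it stayed above 0 in all 8. Without WT early replicate 1 that of Bpifb5 was 1.13. Without WT late replicate 2 that of Bpifb9b was 1.52, above its 1.19 with every library. Without cKO early replicate 2, 4 of 8 were called in cKO (6860 of all genes, against 9346 with every library), and without cKO late replicate 1 it was 5 (8406 of all genes). The change of Bpifb4 in cKO was 0.94 without cKO early replicate 2 and 1.43 with every library. Averaged over the genotypes, 8 of 8 were called whichever library was left out.

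The size of the shift differed between lysates. The late over early ratio of scaled TPM was 1.30 to 2.09 over the members in WT lysate 1 and 2.13 to 2.94 in WT lysate 2. It was 1.79 to 2.51 in cKO lysate 1 and 2.31 to 4.998 in cKO lysate 2, with Bpifb3 at the top. Median ratios of all tested genes were 0.998 to 1.00 in these lysates. The median-ratio scaling sets them near 1, so they cannot show a shift common to all genes. In early libraries replicate 2 lay below replicate 1 for 8 of 8 members in both genotypes, at 0.444 to 0.803 times its level in WT and 0.512 to 0.888 times in cKO. In late libraries replicate 2 was the lower for 5 of 8 members in each genotype, at 0.632 to 1.22 times replicate 1 in WT and 0.714 to 1.14 times in cKO. The ratios of the 2 cKO lysates lay close in Bpifb9a (2.51 and 2.42) and Bpifb9b (2.19 and 2.31). Summed markers of gland cells moved the same way as the members (below), and their part in the shift was not tested.

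**Figure D3:**
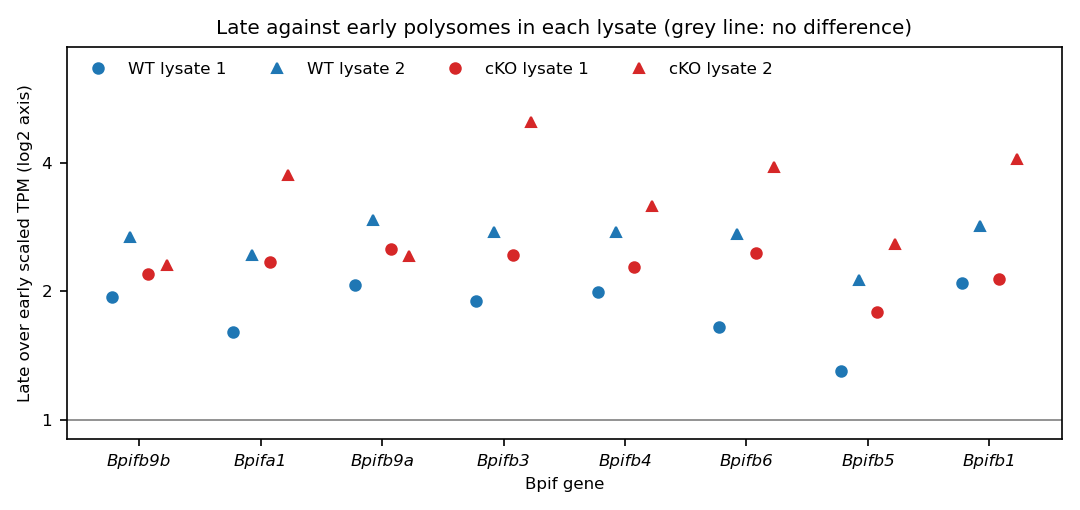
Late over early ratio of scaled TPM (y axis, log2 scale) for each member in each of 4 lysates (circles replicate 1, triangles replicate 2, blue WT, red cKO); the grey line marks equal levels. All points lie above 1, from 1.30 for Bpifb5 in WT lysate 1 to 4.998 for Bpifb3 in cKO lysate 2.

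No member was called between the genotypes. In early polysomes 0 of 8 passed by limma (0.0435% of all genes tested were called) and 1 of 8, Bpifb5, had an unadjusted p under 0.05 (6.65% of all genes tested). In late polysomes 0 of 8 passed (0.0124% called) and again 1 of 8, Bpifb5, had an unadjusted p under 0.05 (9.36% of all genes). On the means of each lysate's early and late log2 values 0 of 8 passed (0.00621% called) and 1 of 8, Bpifb5, had an unadjusted p under 0.05 (11.3% of all genes). Tested with voom on whole reads, 0, 0 and 1 of the 8 passed in the same 3 comparisons, against 0.0746%, 0.0933% and 0.361% of the 16085 genes tested. In the third, voom used the early and late reads of each lysate summed. In that comparison, leaving out 1 library drops its whole lysate. Without WT early replicate 2, limma called 0 of 8 in each of the 3, and 0, 1 and 1 of 8 had an unadjusted p under 0.05.

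Early values of WT and cKO overlapped in all 8 members (37.1% of all genes tested did not overlap). In late polysomes the values of 5 of 8 did not overlap, with cKO above WT, against 40.7% of all genes tested: Bpifa1, Bpifb1, Bpifb3, Bpifb5 and Bpifb6. Mean late levels were higher in cKO for 8 of 8 members, with a median log2 change of 0.30 against -0.00066 over all genes tested. The share of all genes with a higher late mean in cKO was not counted. The members had like profiles over the libraries (below), so they are not 8 separate observations. The summed TPM of gland cell markers (1185 to 1193 in cKO, 1085 to 1092 in WT) and of sustentacular markers (8302 to 9529 in cKO, 7463 to 8191 in WT) was also higher in late cKO libraries without overlap. So were ciliated markers (510.3 to 571.9 in cKO, 486.6 to 497.6 in WT), other BPI-fold genes and the 1 erythroid marker. The gland marker difference lay mostly in Aqp5 (357.4 and 401.9 in late cKO, 265.1 and 311.6 in late WT), without which the sums overlapped. Of the 9 gland markers tested, 6 were higher and 3 lower in late cKO. Sums of other gland products barely separated (highest late WT 11607.4, lowest late cKO 11607.9 TPM), with 11 of the 20 tested genes higher and 9 lower. Mature (7300 to 8034 in cKO, 8338 to 8888 in WT) and immature neuron markers (1797 to 1860 in cKO, 2012 to 2192 in WT) were lower without overlap. Goblet and club, basal cell and neutrophil sums overlapped. The part of these in the members' levels was not tested. The log2 changes in late polysomes were 0.39 (SE 0.26) for Bpifa1, 0.17 (SE 0.24) for Bpifb1, 0.22 (SE 0.28) for Bpifb3, 0.13 (SE 0.37) for Bpifb4, 0.37 (SE 0.26) for Bpifb6, 0.23 (SE 0.36) for Bpifb9a and 0.39 (SE 0.41) for Bpifb9b. None of these 7 had an unadjusted p under 0.05. The late values of Bpifb4 and Bpifb9a changed sign when single libraries were left out.

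Bpifb5 differed most between the genotypes. From the values given above, its late level was 2.05-fold higher in cKO, a log2 change of 1.03 (SE 0.26), with an unadjusted p of 0.00389 and an adjusted p of 0.353 by limma. The adjusted p ranged from 0.136 to 0.971 over the other settings tried, and the change from 0.96 to 1.07. In early polysomes the change was 0.66 (SE 0.26, adjusted p = 0.725 by limma), and cKO replicate 2, at 655.6, lay just below WT replicate 1, at 659.3. Leaving out 1 library at a time moved this early change between 0.27 (without WT early replicate 2) and 1.06 (without WT early replicate 1). The other 7 members ran from -0.38 (Bpifb3) to 0.42 (Bpifb9b) in early polysomes.

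On lysate means Bpifb5 was higher in cKO by 0.85 (SE 0.17), with an unadjusted p of 0.00267 and an adjusted p of 0.319 by limma, and was higher in 2 of 2 cKO lysates. The other 7 members ran from -0.08 (Bpifb3) to 0.41 (Bpifb9b). With voom, which took the early and late whole reads of each lysate summed and not their mean, Bpifb5 passed (adjusted p = 0.0421). Leaving out a library drops its whole lysate from the test on lysate means, which leaves 1 lysate in a genotype. The change of Bpifb5 then ran from 0.63 to 1.07.

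Within libraries, Bpifb5 stood in another proportion to several other members, though not to all, in each genotype. The ratio of Bpifb5 to Bpifb6 was 0.849 and 0.776 in early WT, 0.668 and 0.606 in late WT, 1.38 and 1.54 in early cKO and 0.997 and 1.01 in late cKO libraries. All 4 cKO ratios lay above all 4 WT ratios, so Bpifb5 was the lower gene in WT and level with or above Bpifb6 in cKO. The ratios of Bpifb5 to Bpifb3, Bpifb4, Bpifb1 and Bpifa1 also did not overlap between the genotypes. To Bpifb3, for example, the ratio was 0.505 to 0.767 in WT and 0.839 to 1.62 in cKO. The ratios to Bpifb9a and Bpifb9b did overlap. These pairs were formed after the values of Bpifb5 had been seen, and no test was made of them. Of the ratios without Bpifb5, only a few were taken, and these overlapped between the genotypes. They were Bpifb3 to Bpifb6 (1.11 to 1.27 in WT, 0.949 to 1.21 in cKO), Bpifb3 to Bpifb4, and Bpifb9b to Bpifb9a. Not every pair without Bpifb5 overlapped: Bpifb4 stood lower against Bpifb9b in each cKO library than in any WT library. That pair too was picked after its values were seen. How often ratios of other gene pairs do not overlap was not counted. Early and late libraries of a lysate are not independent, so the 4 ratios of a genotype stand for 2 lysates.

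**Figure D4:**
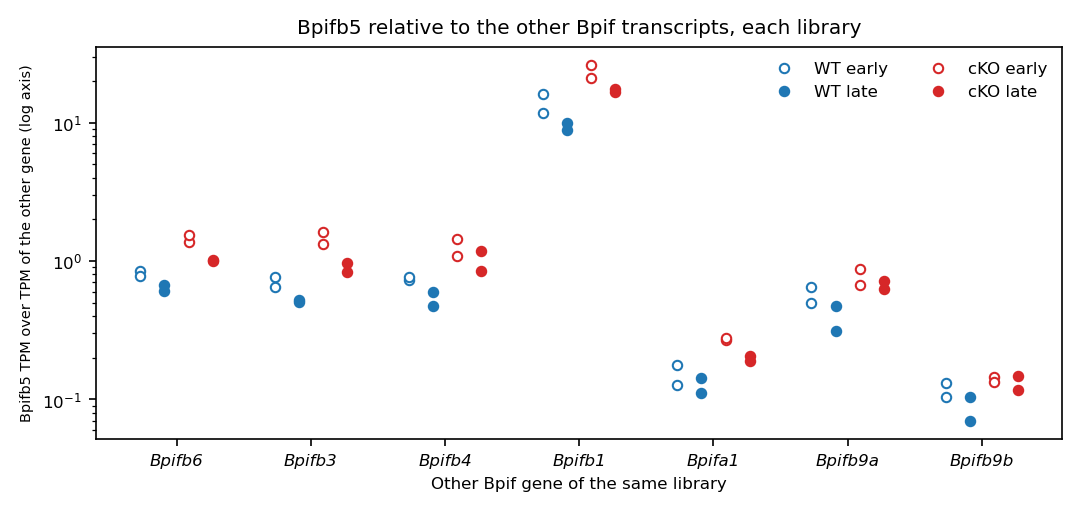
TPM of Bpifb5 divided by TPM of another Bpif gene in the same library (y axis, log scale), by the other gene (x axis); open points early, filled late, blue WT, red cKO. Against Bpifb6 the WT points lie at 0.606 to 0.849 and the cKO points at 0.997 to 1.54, while the genotypes overlap against Bpifb9a and Bpifb9b.

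The shift from early to late polysomes was not called different between the genotypes in any member. The interaction was called for 0 of 8 by limma (0.00621% of all genes tested) and 0 of 8 had an unadjusted p under 0.05 (2.85% of all genes tested). With voom on whole reads 0 of 8 passed (0% of the 16085 genes) and 1 had an unadjusted p under 0.05. Without WT early replicate 2, limma called 0 of 8, and 2 of 8 had an unadjusted p under 0.05. Its values ran from -0.02 (SE 0.58) in Bpifb9b to 0.61 (SE 0.39) in Bpifb3, with Bpifb5 at 0.37 (SE 0.37). At these errors a difference in shift of the size seen in Bpifb3 could not be told from none.

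Profiles over the 8 libraries showed how alike the members were. Each profile was the log2(scaled TPM + 1) of a gene centred on its mean, and likeness was the mean absolute difference between profiles. The closest pair of members was Bpifb9a and Bpifb9b (0.0982 log2 units), followed by Bpifa1 and Bpifb6 (0.0996). Bpifb6 lay closest to the mean profile of the members (0.0962) and Bpifb5 farthest from it (0.321). The least alike pair was Bpifb3 and Bpifb5 (0.465).

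Of 12808 other genes with a mean of at least 5 TPM, those closest to the mean Bpif profile were Kcnn4 (0.0739), Col8a2 (0.0861), Qsox1 (0.0955), Gsta4 (0.0956) and Man2b1 (0.0999). Kcnn4 encodes a calcium-activated potassium channel of secretory epithelia and was also on the list of gland markers. Qsox1 encodes an enzyme that forms disulfide bonds in secreted proteins, and Man2b1 a lysosomal mannosidase. For single members the nearest gene was Coch for Bpifa1 (0.0844), Lgals3bp for both Bpifb1 (0.0526) and Bpifb3 (0.0911), Aldh1a1 for Bpifb4 (0.088), Ces1d for Bpifb6 (0.0901), Col13a1 for Bpifb9a (0.174) and Trim29 for Bpifb9b (0.136). For Bpifb5 it was Ccdc78, at a distance of 0.195, farther than the nearest gene of any other member.

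Among the wider family, 8 of 9 listed BPI-fold genes outside the members were measured and 3 were tested. Pltp, which transfers phospholipids between lipoproteins, and Lbp, which binds lipopolysaccharide in serum, were higher in late polysomes. The change of Pltp was 1.00 (SE 0.15, adjusted p = 0.000394 by limma) at a mean of 61.4 TPM, and that of Lbp was 1.07 (SE 0.12, adjusted p = 8.28e-05 by limma) at 35.3 TPM. Bpifa2 was at -0.05 (SE 0.31) and did not pass. The median of the 3 was 1.00, against -0.01 over all genes.

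Most, but not all, of the other secreted products of nasal glands that were tested lay at the opposite side of the gradient. Of 28 listed genes 25 were measured and 20 tested: 3 were higher and 13 lower in late polysomes (34.6% of all genes tested were called lower), with a median of -0.83. The 3 with the highest levels were Scgb1c1, a secretoglobin (mean 4636 TPM, change -1.51, SE 0.16), and the odorant-binding lipocalins Obp2a (3185 TPM, -0.86, SE 0.13) and Obp2b (2419 TPM, -0.99, SE 0.16). The 3 higher in late polysomes, named after their values were seen, were Ltf (lactoferrin), Muc5b (a gel-forming mucin) and Pigr (the transporter of secreted antibodies). Summed over the list, TPM was 19226 to 20841 in early WT, 10868 to 11607 in late WT, 22014 to 23007 in early cKO and 11608 to 13548 in late cKO libraries. The Bpif members thus rose from early to late while the sum of these other gland products was lower in every late library.

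Coding length moved with that contrast. The 13 listed gland products lower in late polysomes had coding lengths of 285 to 819 nucleotides, below the shortest tested Bpif member, and the 3 higher ones had 2121 to 14400 nucleotides. None of the 20 lay within the members' range of 834 to 1851 nucleotides, so gland products and Bpif genes of equal length could not be compared. The part of length in the contrast was not tested.

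The cell types that could supply Bpif transcripts were followed by marker lists. Of 10 markers of gland acinar and duct cells 9 were tested, and 8 were higher in late polysomes (median 0.76), among them Aqp5, a water channel of acinar cells (mean 287 TPM, change 0.35, SE 0.09), Slc12a2, a chloride cotransporter (229.4 TPM, 0.61, SE 0.12), and Elf5, a transcription factor (109 TPM, 1.25, SE 0.09). Their summed level was 577.1 to 766.5 TPM in early WT, 1085 to 1092 in late WT, 573.8 to 743.8 in early cKO and 1185 to 1193 in late cKO libraries. Lpo, the gland peroxidase, averaged only 0.887 TPM. Muc19, a salivary and nasal gland mucin on the list of gland products, averaged 0.289 TPM, and Prol1 and Smgc were listed at 0. By these values general gland markers were present and some gland products were not, and the transcripts were not assigned to cells here.

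Surface secretory cells are another source of Bpif proteins. Of 8 goblet and club cell markers 6 were tested, 1 higher and 3 lower in late polysomes (median -0.08). The 3 with the highest levels were Agr2 (384.6 TPM, change -0.28), Tff2 (57.3 TPM, -1.73) and Scgb3a1 (27.3 TPM, -1.36). Scgb1a1, the defining club cell gene, averaged 0.227 TPM. The summed level of the 8 markers was 535.4 to 548.4 TPM in early WT, 417.8 to 451.6 in late WT, 538.8 to 605.1 in early cKO and 434.0 to 448.1 in late cKO libraries. Ciliated cell markers were 1 higher and 6 lower of 8 (median -0.85). Sustentacular cell markers, from the supporting cells of the olfactory epithelium, were 7 higher and 1 lower of 8 (median 1.00), and the 3 with the highest levels were Cbr2 (3734 TPM, change -0.51), Cyp2g1 (1976 TPM, 1.67) and Sult1c1 (662.6 TPM, 1.04).

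Markers of mature olfactory sensory neurons were 5 higher and 3 lower of 8 (median 0.34), those of immature neurons 1 higher and 4 lower of 6 (median -0.49), and those of horizontal basal cells 3 higher and 0 lower of 4 (median 0.84). Neutrophil markers were 0 higher and 4 lower of 5 tested (median -1.49). Of 5 listed vomeronasal neuron markers 3 were analysed here and none passed the filter on low values. They summed to 0.135 to 1.01 TPM, while the vomeromodulin genes Bpifb9a and Bpifb9b stood at 1736 and 8572 TPM. The 1 erythroid marker analysed, Alas2, was at 0.09 and was not called.

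**Figure D5:**
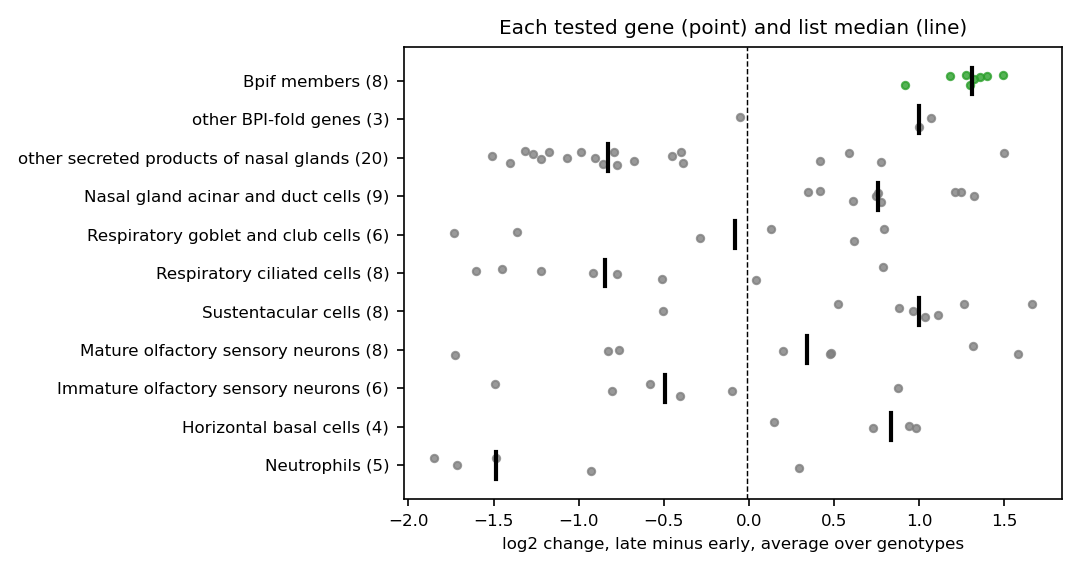
Log2 change from early to late polysomes averaged over genotypes (x axis) for each tested gene (points, with a small vertical jitter) of the Bpif members (green) and of each list with at least 3 tested genes (grey, number tested in brackets); black lines are list medians and the dashed line the median of all genes. The 8 members lie between 0.92 and 1.50, and the other gland products have a median of -0.83.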

How the data were processed

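Polysome RNA was measured in 8 mouse libraries (2 for each genotype and fraction), with groups and replicate numbers taken from the titles. Per the labels' protocols, about 42 fractions of 350 µL were collected, 50 µL of each was pooled, and stranded total RNA libraries were made. The authors deposited TPM for 21765 symbols in 1 table, each library summing to 1000000. The submitters' processing notes name FastQC, cutadapt, STAR, DESeq2 and mm10 (the GRCm38 build), and the counting step is not given in the sources used here. TPM states no depth. In 100% of the 19783 genes above 0 in at least 2 libraries the values were whole multiples of a step (tolerance 0.001 reads), which gave 7776792 to 12771079 reads per library. These served only the voom alternative and the depth behind a value.

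TPM was scaled by median ratios (factors 0.940 to 1.07). log2(scaled TPM + 1), with a pseudocount of 1 that understates changes of low genes, entered limma 3.58.1 (R 4.3.3; 4 groups fitted together, moderated variance with trend, two-sided, Benjamini-Hochberg over the 16097 genes with a mean of at least 1 TPM, threshold 0.05). A second genotype test used lysate means, because both fractions of 1 lysate share their source. That source is read from the library names, which pair early with late, and a fit with the lysate as a block was therefore run for late against early. Paired libraries' deviations from their group means had a correlation over genes of 0.0863 (WT) and 0.0502 (cKO). The scripts were checked on simulated data.

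The text names the 9 members, the 3 highest genes of each list where a list is described in detail, the 5 genes of nearest profile and the nearest gene to each member. The members and lists were chosen with earlier results of these data known. Gene models came from GENCODE M21 (GRCm38) and promoter windows from RefSeq. Alternatives were pseudocounts of 0.1 and 0.5, no filter, a mean of at least 5 TPM, TPM as deposited, quantile normalization, no trend, voom, blocks, only the 4 libraries compared and leaving out each library. The sum of Bpifb9a and Bpifb9b was added after seeing the data. Some items are not reported here.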

Additional observations from a re-analysis of the deposited data

How the results depend on the processing

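Averaged over genotypes, 7 or 8 of 8 members were called higher in late polysomes in every alternative. Without a filter on low values, 2 of 8 were called in WT and 5 in cKO. Dropping the filter adds genes of few reads to the shared estimate of spread and to the adjustment. Over the 21765 genes then tested, calls in either direction numbered 7919 in WT and 8723 in cKO. With the filter they numbered 8826 and 9346 of 16097. Leaving out 1 library at a time gave 1 to 8 called in WT and 4 to 8 in cKO; a group left with 1 library is then assumed to vary like the others. In no alternative did a member change direction between late and early. With the replicate block on lysate, 8 of 8 were called on average, in WT and in cKO, and 0 in the interaction. For cKO against WT by lysate, 1 member (Bpifb5, log2 change 0.81) was called with voom on the summed early and late reads of each lysate. On lysate means 1 (Bpifb5, 0.85) was called with a replicate block on the number shared by WT and cKO. That block moved the calls over all genes from 1 to 85. No label says that this number marks anything shared, and same-numbered WT and cKO libraries deviated together across genes at 0.332 in early and 0.143 in late polysomes. In early and late polysomes that block called 0 members.

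Members not called between the genotypes changed sign in some fits. Leaving out single libraries moved early Bpifb3 between -0.81 and 0.040, early Bpifb9b between -0.14 and 0.98, late Bpifb4 between -0.11 and 0.37 and late Bpifb9a between -0.10 and 0.56. On lysate means, leaving out a library drops its whole lysate. Bpifb3 then moved between -0.25 and 0.084 and Bpifb9b between -0.037 and 0.85. The interaction moved between -0.027 and 0.76 in Bpifb5 and between -0.58 and 0.54 in Bpifb9b, which stood at 0.022 with quantile normalization. The cause was not tested. The standard errors on lysate means, 0.14 in Bpifb1 to 0.32 in Bpifb9b, limit which genotype differences could be detected.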
